A study of Mus musculus with 16 samples.

Results

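The untreated non-diabetic aorta was measured on 4 of the 16 arrays of the series, those whose titles carry the group name NDM. These 4 arrays, 1 per mouse, are described here as the baseline of the Apoe-deficient aorta on high fat diet: which genes had the highest signals, and how far the 4 mice differed. Of the 45101 probe sets of the Affymetrix array, the highest one for each of 18193 named genes was ranked by its mean log2 signal over these mice. For the spread between mice, 11036 genes were used whose mean over all 16 arrays lay above the median of all probe sets, a linear signal of 383.

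The series crosses diabetes, made with the beta cell toxin streptozotocin, with dietary ruboxistaurin (RBX), a drug that blocks the beta form of protein kinase C. The NDM mice had neither. The other 3 groups, also of 4 mice each, were non-diabetic mice with RBX in the diet (NDM_RBX), diabetic mice (DM) and diabetic mice with RBX in the diet (DM_RBX). Every mouse, NDM included, lacked apolipoprotein E, came from a commercial breeder at 5 weeks of age, ate the high fat diet for 10 weeks from 8 weeks of age and was 18 weeks old at sampling. The diabetic mice were given streptozotocin at 6 weeks. Whether NDM mice had a sham injection, and how the aorta was cleaned of fat, are not given in the sources used here, and no lean or Apoe-intact mouse was among the 16. The mice of a group are separate animals per the titles.

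The aortic wall has an inner lining of endothelium, a media of smooth muscle cells between elastic sheets, and an outer adventitia of fibroblasts and collagen that borders on fat. Smooth muscle cells contract through actin and myosin and also make much of the wall's collagen, elastin and proteoglycans. Without apolipoprotein E, cholesterol-rich particles stay in the blood, and macrophages that take them up become the foam cells of atherosclerotic plaque.

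Each value is a MAS5 signal, a linear intensity that the authors had scaled so that the trimmed mean of every array was 1500. A signal depends on the probes as well as on the transcript, so the ranking is an order of signals and not of molecules. Of the 100 highest genes 73 had more than 1 probe set, and the highest and the lowest of a gene's probe sets lay a median of 5.39 log2 units apart. No 2 NDM arrays held identical values. The cre hybridisation control read 106722, 112119, 179970 and 123619 in NDM mice 1 to 4, against 138028 to 447234 (median 190642) on the 12 other arrays (exact two-sided permutation p = 0.00549, adjusted p = 0.0128 over 7 array measures). The Actb control probe sets, whose 3' to 5' ratio reflects RNA integrity and labelling, gave a log2 ratio of 1.02, 0.85, 1.32 and 0.97 in NDM mice, against 1.16 to 2.51 on the others (exact two-sided permutation p = 0.0033, adjusted p = 0.0128). Cre and the Actb ratio were lower in NDM mice, and within NDM highest in mouse 3. The log2 Gapdh ratio was highest in mouse 1, with 0.25, 0.0029, 0.19 and 0.06 in NDM mice, and its difference from the rest did not pass (adjusted p = 0.115, exact permutation). By the same exact test the median signal of an array was lower in NDM (adjusted p = 0.0128), the 90th percentile higher (adjusted p = 0.0135) and the 99th lower (adjusted p = 0.0354), while the 75th did not pass (adjusted p = 0.974).

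The genes at the head of the ranking encode parts of the cytoskeleton, the ribosome, the contractile apparatus and the extracellular matrix. Tmsb4x, which encodes the actin-binding peptide thymosin beta-4, had the highest mean, with 155618, 154211, 216556 and 172362 in mice 1 to 4. Rps29, a protein of the small ribosomal subunit, had 152127, 154541, 205327 and 165252. Acta2, the smooth muscle actin, had 152844, 150794, 193167 and 166811. In each of the 3 genes mouse 3 was highest and mouse 4 next, and mice 1 and 2 lay close together below them.

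Next in order were Tpt1, the translationally controlled tumour protein (154047 ± 29014, mean ± SD, n = 4 mice), and the intermediate filament gene Vim (147869 ± 23670). They were followed by the galectin gene Lgals1 (146547 ± 18343), the iron storage gene Fth1 (144857 ± 18677) and Mgp, an inhibitor of vascular calcification (143891 ± 23906). The mitochondrial gene ND5, a subunit of respiratory complex I, held rank 9 with 130695, 90438, 237167 and 145796. Its SD of 0.57 log2 units was the largest in the top 100, and mouse 3 lay far above mouse 2. The elongation factor gene Eef1a1 closed the highest 10 with 137836 ± 19077.

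**Figure D1:**
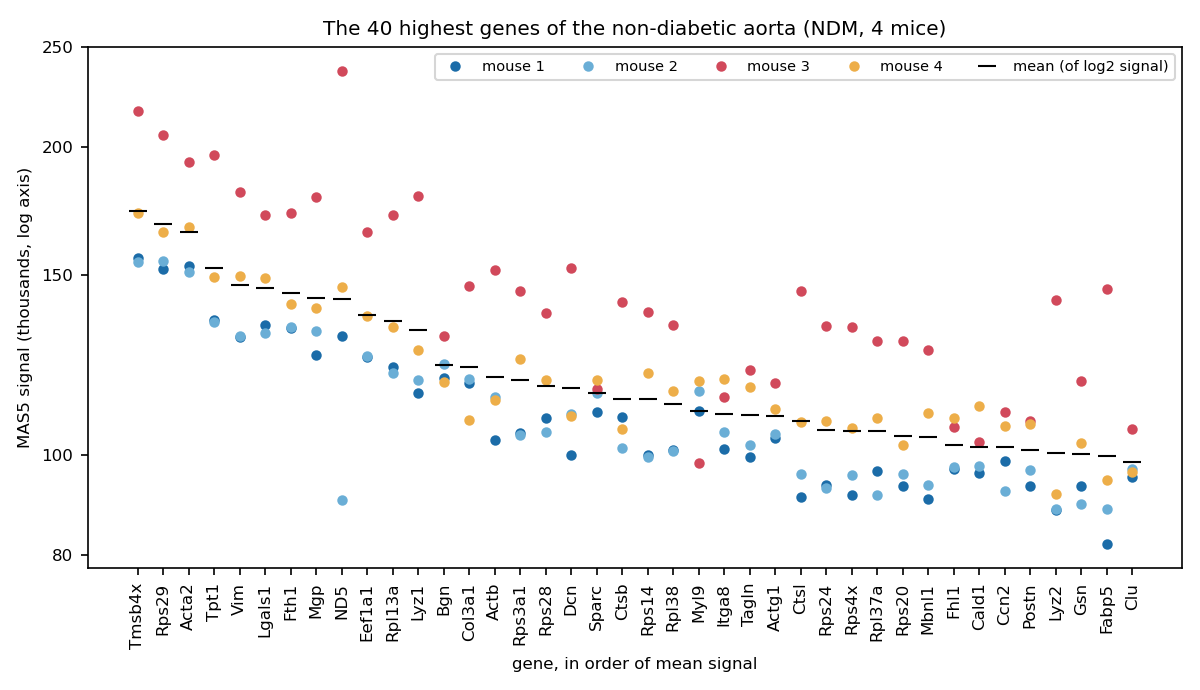
MAS5 signal (in units of 1000, log axis) of the 40 highest genes in each of the 4 NDM mice, with a bar at the mean of the log2 signal. Mouse 3 (red) lies above the other mice for most genes, while Sparc, Clu and Cald1 lie closer together and Myl9 is lowest in mouse 3.

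The 4 mice gave nearly the same order. Over all 18193 genes Spearman's rho between 2 mice was 0.957 to 0.969, and over the genes above the signal filter 0.970 to 0.986. These correlations are across genes, which are not independent replicates. Of the top 100 genes 88 were in the top 100 of all 4 mice, and 116 genes reached the top 100 of at least 1 mouse. The 10 highest genes held 2.31%, 2.28%, 3.11% and 2.53% of the summed signal of all ranked genes in mice 1 to 4, the top 100 held 14.8% to 18.1% and the top 1000 held 49.9% to 52.6%. Each of these shares was largest in mouse 3.

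The top 100 began at 60492 and ran up to 174687 in mean signal. At its lower edge stood the chloride channel protein Clic4 at rank 99 (60492 ± 2007) and the lipoprotein lipase gene Lpl at rank 100 (62193 ± 20350), and the next in order were the chaperone Hspa5 (59807 ± 5743) and the ribosomal Rps3 (59387 ± 8206). These neighbours did not differ beyond their spread. Most of these genes were also among the 100 highest of the other groups: 81 of the 100 genes were in the top 100 of NDM_RBX means, 90 in that of DM, 90 in that of DM_RBX and 79 in all 3. In RefSeq the 100 genes span a median of 6606.5 bases of genome, against 20334.5 for 18028 ranked genes with a known span. Their probe sets also differed in kind, since 22 of the 100 had the suffix that marks possible cross-hybridisation (x), against 3.86% of all ranked genes, so signal from near-identical copies can enter these values.

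Lists of cell types and pathways, 33 in all, held 69 of the top 100 genes and 661 of all ranked genes (3.63%). Cytosolic ribosomal proteins gave the most members, 24 of 43 measured, with a median rank of 80 and a median signal of 71069.6. Proteoglycan and matricellular genes gave 10 of 22, contractile smooth muscle 8 of 26, cytoskeleton 6 of 18, macrophage and foam cell markers 5 of 31 and lysosomal genes 5 of 19. Endothelial, interferon, chemokine, MHC class II, immediate early and brown adipocyte lists gave none. By definition the top 100 are 0.55% of all ranked genes.

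Ribosomal protein genes are generally expressed at a high level. Many of their transcripts begin with a C followed by a run of pyrimidines (C and T in DNA), a feature through which growth signals control their translation in mammals. Not all had high signals here: 35 of the 43 measured were in the top 1000, and Rps16 stood at rank 17916 of 18193. Besides Rps29 the highest were Rpl13a (121921, 120305, 171567 and 133266 in mice 1 to 4), Rps3a1 (105251, 104675, 144497 and 124104) and Rps28 (108722, 105374, 137558 and 118517). In these genes too mouse 3 was highest and mouse 4 next. In the RefSeq promoter table (GRCm38.p6, one window of 300 bases per gene, 250 before and 50 after the annotated start), 38 of the 43 measured ribosomal genes were found. A C followed by at least 4 pyrimidines at the annotated start was read in 9 of these 38 (23.7%), in 7 of 73 matched top 100 genes and in 2.49% of all 27025 promoters. A start placed a few bases off in the annotation would hide the run, so these are counts of letters at the annotated start and not of regulated transcripts.

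The 5 such ribosomal genes of the top 100 are shown with the 30 bases before and the 20 bases from the start, on the coding strand, with the pyrimidine run in capitals. They lie on chr11:114668550-114668599 (+), chr17:33955646-33955695 (-), chr2:39005112-39005161 (-), chr17:27635225-27635274 (-) and chr7:141447621-141447670 (+) of GRCm38.p6, in the order given.
Rpl38: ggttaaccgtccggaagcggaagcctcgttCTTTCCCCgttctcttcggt
Rps18: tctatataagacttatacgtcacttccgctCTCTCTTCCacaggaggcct
Rpl35: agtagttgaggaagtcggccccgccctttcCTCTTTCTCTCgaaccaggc
Rps10: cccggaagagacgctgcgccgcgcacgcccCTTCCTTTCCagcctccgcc
Rplp2: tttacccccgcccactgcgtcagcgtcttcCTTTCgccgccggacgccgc
In the order shown the runs are 8, 9, 11, 10 and 5 bases long. The signals of these genes were 112951 ± 15549 for Rpl38, 90690.2 ± 14202 for Rps18, 88492 ± 14901 for Rpl35, 87917 ± 8441 for Rps10 and 81741 ± 8304 for Rplp2 (mean ± SD, n = 4).

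Contractile smooth muscle genes had a median rank of 267.5 over 26 measured genes, and 18 of them were in the top 1000. The regulatory myosin light chain gene Myl9 had 110400.0, 115676, 98305 and 118191 in mice 1 to 4. The integrin gene Itga8, a matrix receptor of smooth muscle, had 101530.0, 105415, 114097 and 118785. Tagln, the actin cross-linker transgelin, had 99538, 102450.0, 121117 and 116497. Mouse 3 was lowest for Myl9, and highest for Tagln, so these genes did not share 1 order of mice.

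Tpm2, a tropomyosin of the thin filament, was the steadiest gene of the top 100, with 95991, 97897, 97505 and 99764 (SD 0.02 log2 units). Cald1, the thin filament regulator caldesmon, had 96179, 97748, 103158 and 111627. The smooth muscle myosin heavy chain Myh11 (83170.2 ± 6336) and filamin A, Flna (79320.0 ± 3701), completed the 8. Lower in the list, Smtn (smoothelin) had 31682, 29006, 12391 and 20716, and Sost, which encodes the Wnt antagonist sclerostin, had 14891, 14983, 7696 and 14734. In both genes mouse 3 was the lowest.

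Serum response factor, with its partner myocardin, drives many contractile genes through the CArG box. This motif was searched as CCWWWWWWGG, where W is A or T, on both strands (the pattern reads the same on each). It was found in the 300 bases of 2 of 22 matched contractile genes (9.09%), 4 of 73 top 100 genes (5.48%) and 1.57% of all promoters. Both contractile matches are printed, on the coding strand of GRCm38.p6, with the motif in capitals, since they are the members of the list in which these letters stand near the start. That of Myl9 begins 161 bases before the start (chr2:156775283-156775332, +) and that of vinculin, Vcl, 227 bases before it (chr14:20929151-20929200, +). Boxes outside the window, and boxes inside it that depart from this pattern, were not searched. A gene without a match may therefore still have a box near its start.
Myl9: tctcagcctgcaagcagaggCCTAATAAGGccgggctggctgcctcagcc
Vcl: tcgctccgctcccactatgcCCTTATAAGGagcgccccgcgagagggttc
Vcl, which links actin to cell contacts, had 49932, 44653, 36291 and 48123 in mice 1 to 4 at rank 166. Like Myl9 it was lowest in mouse 3, but so were Smtn and Sost, which had no match.

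Among matrix genes, the proteoglycan and matricellular list had 10 of 22 genes in the top 100 and 13 in the top 1000 (median rank 497), and the collagen and elastic fibre list 2 and 19 of 24 (median rank 484). Bgn, the proteoglycan biglycan, had 119023, 122644, 130731 and 117801. Sparc, a collagen-binding glycoprotein, had 110315, 115066, 116144 and 118321, an SD of 0.04 log2 units. Dcn, the proteoglycan decorin of the adventitia, had 100086, 109698, 152221 and 109280.0. Bgn and Sparc differed little between mice, while Dcn was higher in mouse 3 than in the others.

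Also in the top 100 were the matricellular genes Ccn2 (102060.0 ± 8036) and Postn (101358 ± 7408), the chaperone-like Clu (98711 ± 5040.0), fibronectin Fn1 (98616 ± 6565), lumican Lum (99201 ± 20893) and osteoglycin Ogn (78764 ± 12953). The fibrillar collagen Col3a1 had 117558, 118639, 146349 and 108191, and Col1a2 had 87512, 85243, 94473 and 81748. Basement membrane Col4a1 (56422 ± 1538) and the elastic fibre protein Fbln5 (45726 ± 947) were among the steadiest genes, with SDs of 0.04 and 0.03. Elastin itself, Eln, had 56666, 53236, 40042 and 51198 at rank 133, lowest in mouse 3.

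Some macrophage and foam cell markers had high signals in the NDM aorta. Of 31 measured 15 were in the top 1000 (median rank 1120), and the lowest stood at rank 9813. The lysozyme genes Lyz1 and Lyz2 held ranks 12 and 37. The probe set of Lyz1 has the suffix x, which marks possible cross-hybridisation, so its signal may include that of other transcripts. Lyz2 had 88533, 88689.5, 141848 and 91638. Cathepsin S, Ctss, a lysosomal protease of antigen-presenting cells, had 79263, 77021, 114446 and 76461. In both genes mouse 3 stood alone and the other mice lay close together. Lgals3, the galectin of activated macrophages, had 62872, 69712, 108631 and 70855, and the foam cell gene Gpnmb had 60471, 69528, 98438 and 79609.9.

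Mmp12, the macrophage elastase, had 20496, 19876, 39250.4 and 17106, again highest in mouse 3. Csf1r, the receptor for macrophage colony-stimulating factor, varied less (24114, 19871, 25429 and 19214). The lysosomal list, to which Ctss also belongs, held Ctsb at rank 20 (114498 ± 18021), Ctsl at rank 27 (109862 ± 24231) and prosaposin, Psap, at rank 47 (94665 ± 16153). Antigen presentation genes lay lower and were steadier, with H2-Aa at 30094 ± 3292 and the invariant chain Cd74 at 26617 ± 2497, and the pan-leukocyte gene Ptprc stood at rank 1609 (8270 ± 877).

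Endothelial markers lay far below, with a median rank of 4141 over 22 genes and 1 of them, Vwf, in the top 1000. Vwf, the von Willebrand factor, had 16729, 18969, 18053 and 16425. The endothelial receptor phosphatase Ptprb (10783 ± 1544) and the junction molecule Pecam1 (8186 ± 1586) came next of those named. Emcn, the sialoglycoprotein endomucin, had 2004, 1442, 2127 and 4257, the largest spread of the list, and mouse 4 was highest. In whole tissue, fewer cells of a type and less RNA per cell cannot be told apart.

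Of 18 white adipocyte genes 3 were in the top 100 and 5 in the top 1000, with a median rank of 1940.0, and none of the 14 brown adipocyte genes was in the top 1000 (median rank 7742.5). Scd1, a fatty acid desaturase, had 71434, 57477, 77281 and 62003. Fabp4, the fatty acid binding protein of adipocytes and macrophages, had 69796, 50772, 92571 and 57121. Lpl had 52302, 48668, 92440.5 and 55359. Mouse 3 was highest and mouse 2 lowest in each of the 3 genes. The adipokine Adipoq, a defining marker of fat cells, stood at rank 1188 with 12096, 7810.0, 13719 and 10269.8, and the brown fat uncoupler Ucp1 at rank 1947 with 6737, 5569, 10529 and 5410.1.

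Of 15 heat shock chaperone genes 1 was in the top 100 and 6 in the top 1000 (median rank 1166), and of 13 acute phase and metallothionein genes 0 and 4 (median rank 2901). The constitutive chaperone Hspa8, in the top 100, had 74174, 73979.6, 84426 and 95219. Hsp90aa1 had 41623, 39565, 38793 and 59528, and Hsph1 had 8329.9, 8405, 7293 and 13379. For these chaperones mouse 4 was highest. The metallothionein genes Mt1 (39215, 40704, 72229 and 46554) and Mt2 (32460.1, 33621, 60745 and 37748) were highest in mouse 3.

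Markers of tissues that were not sampled gave low signals. The median signal was 85.9 over 19 liver genes, 142 over 19 brain genes, 50.4 over 18 testis genes and 67.2 over 13 pancreas genes. Alb, the liver's albumin, had 91.4, 88.2, 176 and 269. The highest of the liver list was Cyp2e1 at rank 1942 (7228 ± 2858), a cytochrome that fat also expresses, and the highest of the pancreas list was Cela1, an elastase, at rank 7346 (1312 ± 131). For striated muscle the median over its 37 genes was 136, with 9 genes above the filter and none in the top 1000.

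Apoe itself, disrupted in all mice, read 493, 410.4, 843 and 436 at rank 10176. The position of its probes relative to the disruption was not examined, and the value is no check of genotype. Prkcb, the gene of the kinase blocked by RBX, read 2396, 2095, 2412 and 1126 at rank 5897, lowest in mouse 4.

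The spread between mice was small for most genes. Over the 11036 genes above the filter the median SD was 0.18 log2 units (25th and 75th percentiles 0.12 and 0.28), a median coefficient of variation of 12.5%. The highest mouse exceeded the lowest by over 2-fold for 798 genes (7.23%), and 559 genes (5.07%) had an SD over 0.5. The median SD fell from weak to strong genes and rose again at the top: it was 0.88 for the genes ranked beyond 10000, 0.21 for the 5000 genes before them, 0.14 for the 4000 before those, 0.12 for the rest of the top 1000 and 0.18 for the top 100. After quantile normalization, which gives every array the same distribution of values, the median for the top 100 was 0.10. Within the other groups, the median SD over the same genes was 0.26 in NDM_RBX, 0.20 in DM and 0.19 in DM_RBX.

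**Figure D2:**
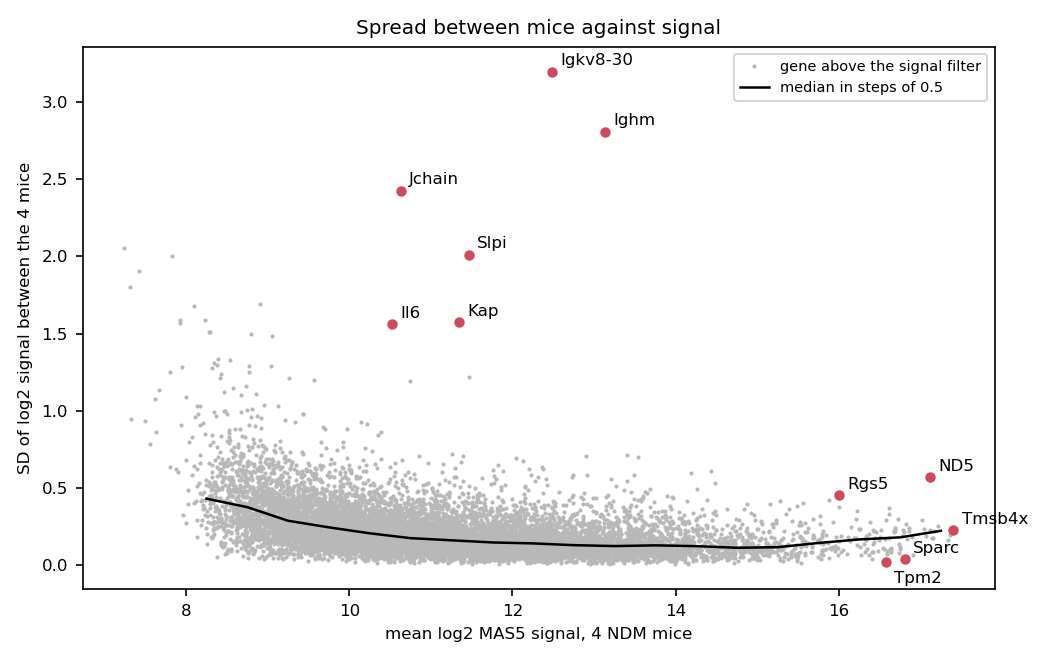
SD of log2 signal between the 4 NDM mice against mean log2 signal, 1 point per gene above the filter, with the median in steps of 0.5 as a line and named genes in red. Immunoglobulin genes, Slpi, Kap and Il6 lie far above the line, and Tpm2 and Sparc lie below it.

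The steadiest genes of the top 500 differed by a few percent between mice. Fkbp9, a protein-folding enzyme of the endoplasmic reticulum, had 47493, 47528, 47211 and 48257, an SD of 0.01 log2 units. Spcs1, a subunit of the signal peptidase, had 26822, 26429.6, 26655 and 27228. The calpain subunit gene Capns1 had 22117, 22586, 22061 and 22925. No mouse stood apart in these genes, nor in Tpm2 or Fbln5.

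The wider spread at the top came from mouse 3. Of the top 100 genes 82 were highest in mouse 3, 16 in mouse 4, 2 in mouse 1 and 0 in mouse 2. The median deviation of the 100 genes from their own mean was -0.12, -0.11, 0.23 and 0.01 log2 units in mice 1 to 4. After quantile normalization it was 0.01, 0.01, -0.03 and 0.00. Array 3 was also the NDM array with the highest cre control and Actb ratio, and the part of these in the higher signals was not tested.

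Several gene lists lay together above or below their means in single mice, by their medians as deposited and after quantile normalization. Counts above the mean are for the deposited values, and the matching share of all genes is not given. For comparison, the deposited median in mouse 3 was 0.23 for the top 100 and 0.02 for the rest of the top 1000. It was -0.02 for the next 4000 genes, -0.01 for the next 5000 and 0.22 for those beyond rank 10000. In mouse 4 these medians were 0.01, 0.02, -0.01, -0.04 and -0.04. In mouse 3 all 31 macrophage and foam cell markers lay above their own 4-mouse mean, by a median of 0.38 log2 units (0.33 after quantile normalization). So did all 17 white adipocyte genes above the filter (0.35, or 0.32) and all 8 erythroid and platelet genes (0.42, or 0.39). Contractile smooth muscle genes were lower in mouse 3, by a median of -0.25 (-0.34 after quantile normalization), with 7 of 26 above their mean. Immediate early genes also lay lower there, at -0.24 (-0.22). The ribosomal list was 0.23 higher in mouse 3, with 40 of 42 above their mean, but 0.05 after quantile normalization.

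Mouse 4 differed in other lists. All 15 heat shock chaperone genes lay above their mean in mouse 4, by a median of 0.24 (0.25 after quantile normalization). None of the 11 acute phase and metallothionein genes did, at -0.37 (-0.37), and in mouse 3 that list lay at 0.59 (0.51). Among them S100a8, a protein of neutrophils, had 2518, 2098, 4743 and 1441, and S100a9 had 1546, 1195, 2732 and 648, highest in mouse 3 and lowest in mouse 4 in both. Saa3, an acute phase protein, had 6608, 5253, 4221 and 2170.3, lowest in mouse 4 but highest in mouse 1. Endothelial genes were a median of 0.15 higher in mouse 4 (0.15), with 16 of 22 above their mean. White adipocyte genes were lowest in mouse 2, at -0.25 (-0.25), where 1 of 17 lay above its mean. Each of these shifts is that of 1 mouse, has no replicate and was not tested.

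**Figure D3:**
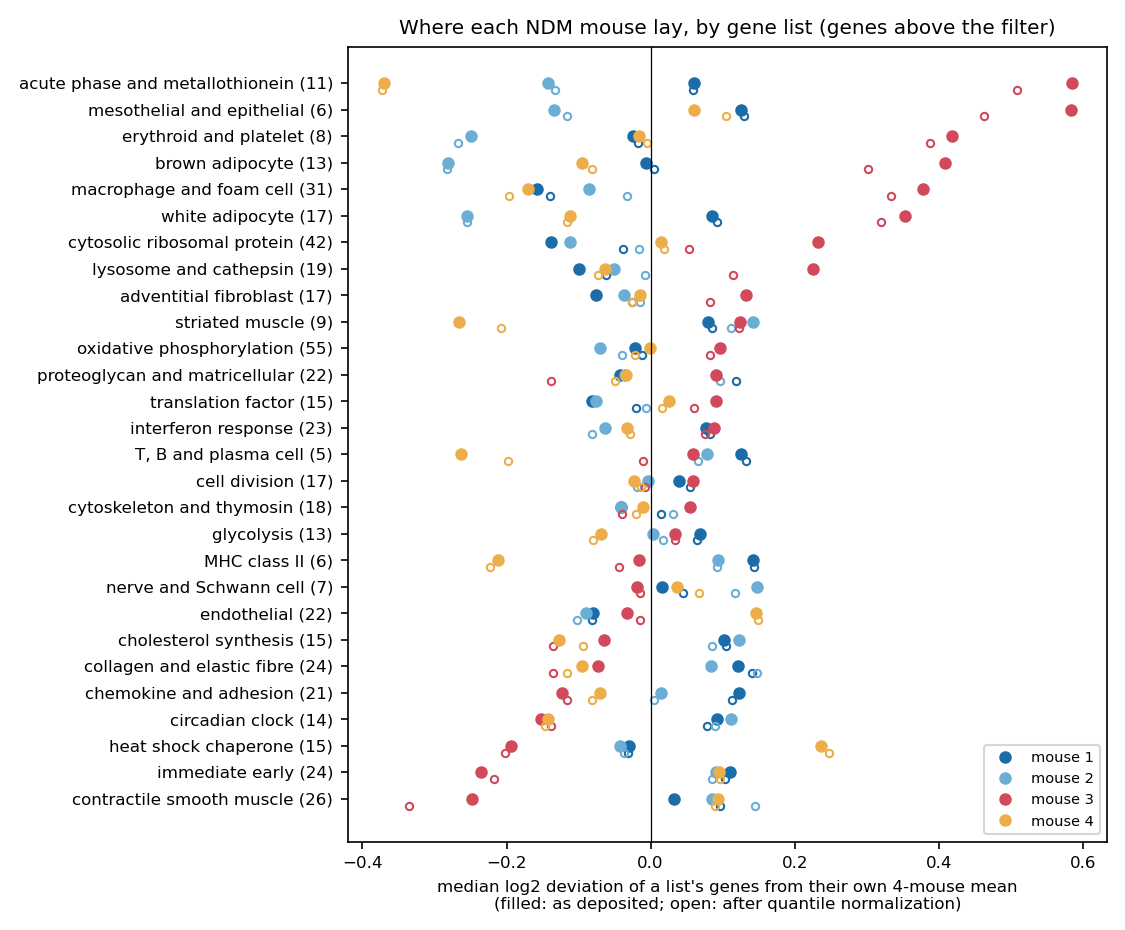
Median log2 deviation of each gene list from its genes' own 4-mouse mean, in each NDM mouse, as deposited (filled) and after quantile normalization (open), with the number of genes above the filter in brackets. Macrophage, adipocyte, erythroid and acute phase lists lie to the right in mouse 3 and contractile and immediate early lists to the left, while the ribosomal list moves towards 0 after normalization.

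The 3 genes with the largest SD above the filter were antibody genes: Igkv8-30 (3.2), Ighm (2.81) and Jchain (2.43). Ighm, the immunoglobulin M heavy chain, had 44845, 52138, 2021 and 1399 in mice 1 to 4, against 926 to 2269.5 on the 12 arrays of the other groups. Igkv8-30, a kappa light chain variable gene, had 34152, 38679, 1848 and 438 in NDM mice, against 197 to 6999 on the others. Jchain, which joins IgM and IgA chains into polymers, had 5315, 5488, 1422 and 153 in NDM mice, against 15.1 to 4571 on the others. Mice 1 and 2 were thus high and alike, mice 3 and 4 low, and for Ighm the 2 high mice exceeded every other array of the series. For Igkv8-30 and Jchain the highest of the other arrays was NDM_RBX mouse 4.

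Mzb1, a plasma cell chaperone of IgM secretion, lay below the signal filter and had 2131, 2132, 388 and 165 in NDM mice, against 129 to 482 on the others. Slpi, a secreted inhibitor of neutrophil elastase, had 8301, 10701, 887 and 811 in NDM mice, against 683 to 1428 on the others. Mmp13, a collagenase, had 5083, 4987, 2988 and 837 in NDM mice, against 842 to 2939.9 on the others. All of these were again highest in mice 1 and 2. Of the list of T, B and plasma cell genes 5 of 15 measured genes were above the filter, and the pan-leukocyte Ptprc did not follow (8271, 8207, 9374 and 7229).

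**Figure D4:**
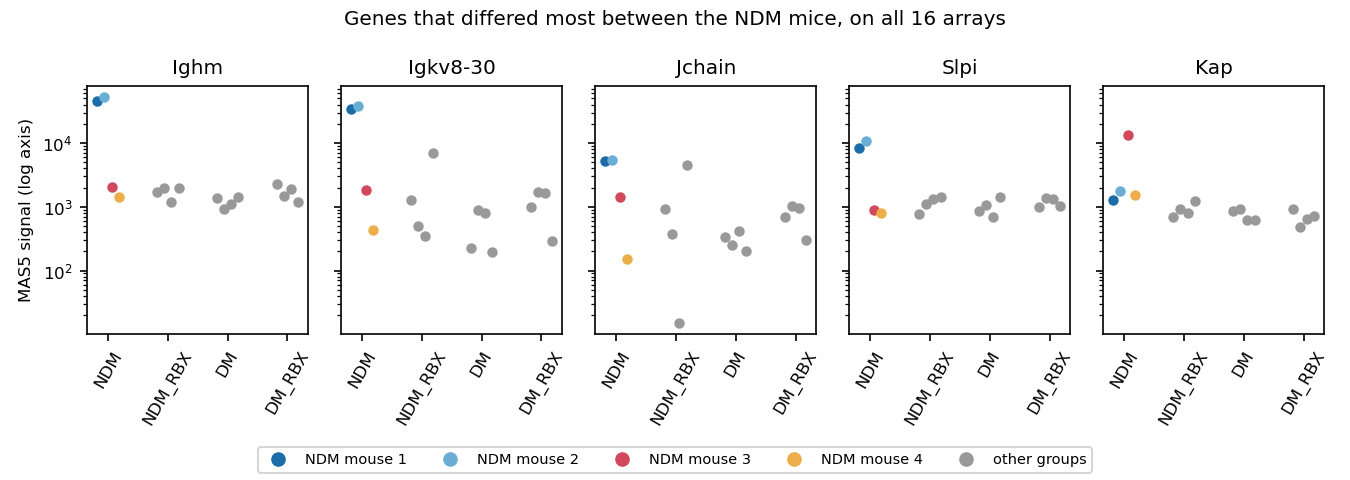
MAS5 signal (log axis) of 5 genes in each NDM mouse (coloured) and in the mice of the other 3 groups (grey), 1 point per mouse. Ighm, Igkv8-30, Jchain and Slpi are high in NDM mice 1 and 2, and Kap in NDM mouse 3.

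Other genes stood out in 1 mouse. Kap, the kidney androgen-regulated protein, had 1294, 1768, 13239.7 and 1523 in NDM mice, against 475 to 1244 on the other arrays. A kidney list of 18 measured genes was added because of this value, so it supports nothing. Its 8 genes above the filter, Kap among them, lay above their mean in mouse 3, by a median of 0.89, and so did the 2 genes of the liver list (0.84), while the mesothelial and epithelial list lay at 0.58 there. Kap alone of the 8 had all 4 NDM values above those of the other arrays. The 8 included Slc27a2, a fatty acid transporter also listed for brown fat (522, 247, 1859.8 and 324), and Gpx3, a secreted peroxidase (10365, 9174, 15216 and 9173). The other 10 of the 18 kidney genes lay below the filter. Il6, the cytokine interleukin 6, was low in mouse 3, with 2389.7, 2795, 291 and 2382. Rgs5, a regulator of G-protein signalling of pericytes and smooth muscle that was named after its values were seen, had 67755, 66193, 43720.0 and 94655.

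Whether genes varied more between NDM mice than within the other groups was examined with limma on absolute deviations from group means. Of 11036 genes 6 (0.0544%) passed an adjusted p under 0.05, 5 with a larger spread in NDM (0.0453%) and 1 with a smaller one (0.00906%), and 1062 had an unadjusted p under 0.05. The 5 were Ighm, Slpi, Smim22, the drug efflux pump gene Abcb1a and the microtubule-associated Map7d1, and the 1 was Hspa12b, a chaperone-like gene of endothelium. All but Ighm and Slpi are named here after the test was seen. On simulated data this test also called genes that had not been changed, so its calls are given as a description.

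Set against the rest of the series as deposited, 18 of 26 contractile smooth muscle genes were higher in the NDM aorta, and 17 of 23 interferon response, 16 of 22 endothelial and 18 of 31 macrophage genes were lower. The macrophage count was 6 or 7 without NDM mouse 1, 2 or 4, and the contractile count 11 without the NDM_RBX arrays. In limma, NDM minus the mean of the other 3 groups passed an adjusted p under 0.05 for 989 genes higher in NDM (8.96% of 11036) and 1037 lower (9.4%), 18.4% in all. All 4 NDM values lay above the 12 others for 1.99% of genes and below them for 1.42%, 3.42% together. The count was 963 in place of 2026 without the NDM_RBX arrays, which had the highest mean cre signal and Actb ratio of the 4 groups. It was 1127, 1093 and 1030 without NDM mouse 1, 2 or 4. The cre control and the Actb ratio were lower in NDM (above), and their part in these differences was not tested.

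Of the top 100 genes 11 were higher in NDM than in the rest and 52 lower, against 8.96% and 9.4% of all genes tested. The median difference was -0.27 log2 units, against -0.01 over all genes tested. After quantile normalization 31 were higher and 2 lower, with a median of 0.03, against 867 and 935 of all 11039 genes. The same NDM signals chose the 100 genes and entered the difference, a choice that favours values higher in NDM. These counts therefore describe the set and test nothing. As deposited, 7, 6, 7 and 6 were higher and 28, 27, 59 and 33 lower without NDM mouse 1, 2, 3 or 4. The direction for the highest signals as a group therefore turned with the scaling. Tpt1 was -0.56 (SE 0.10, adjusted p = 0.00142) as deposited and -0.02 (adjusted p = 0.837) after quantile normalization. Rpl13a was -0.52 (adjusted p = 0.00146) and -0.07 (adjusted p = 0.378) in the same way. Acta2 was -0.26 (adjusted p = 0.0533), 0.21 (adjusted p = 0.065) after quantile normalization and 0.81 (adjusted p = 0.000559) when its probe sets were averaged, so no direction can be given for it. Of the 42 ribosomal genes tested 30 were lower and 0 higher, but 5 lower and 1 higher after quantile normalization. The 30 were 19 without NDM mouse 1 and 14 without the NDM_RBX arrays.

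**Figure D5:**
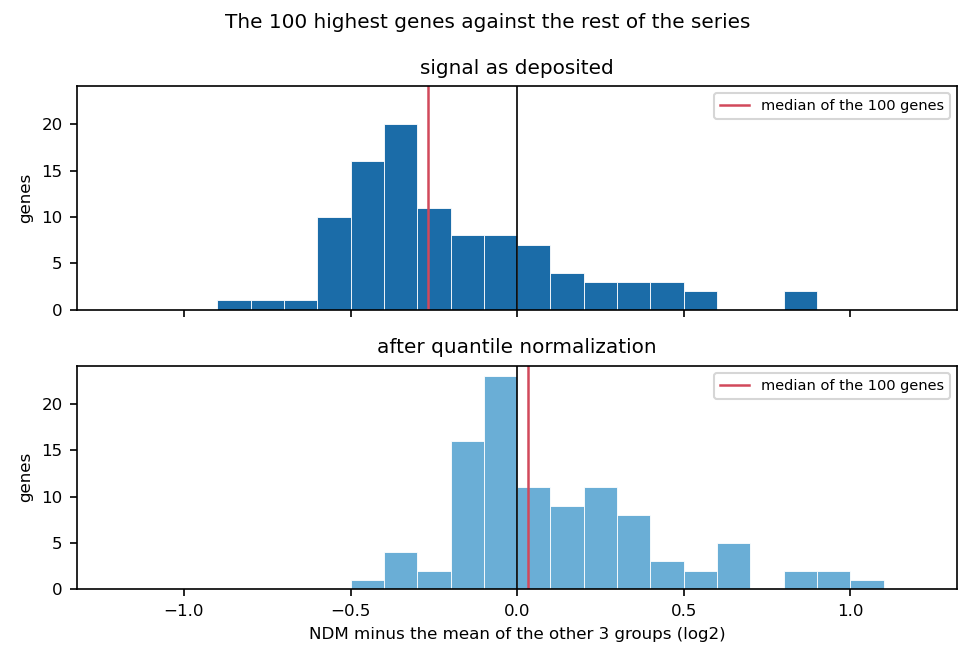
Number of the 100 highest genes at each log2 difference, NDM minus the mean of the other 3 groups, as deposited (top) and after quantile normalization (bottom), with the median in red. The median is -0.27 as deposited and 0.03 after normalization.

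Of the 11 higher genes, Myl9, Itga8, Cald1 and Myh11 are in the contractile smooth muscle list and Postn in the matricellular one, and those not among the 40 highest are named here after their values were seen. Ccn3, a matricellular gene, had 62394, 61616, 70058 and 60549.9 in NDM mice, against 18721 to 60380.1 (median 36904) on the others, a difference of 0.83 (SE 0.14, adjusted p = 0.000829). It was the only one of the 11 whose NDM values all lay above the other 12, which held for 1.99% of all genes tested. Ccn3 passed in each alternative run. Myl9, with the NDM values given above, had 36740.0 to 111830.0 (median 86104) on the others (0.55, SE 0.13, adjusted p = 0.00688). The others were Rgs5 (0.87), Csrp2 (0.55), Itga8 (0.49), Actn1 (0.45), Myh11 (0.45), Postn (0.38), Nupr1 (0.37), Cald1 (0.29) and Igfbp7 (0.27), with adjusted p from 0.00317 to 0.0433. Of 25 alternatives the call was lost in 16 for Igfbp7, 13 for Cald1, 8 for Postn and 7 for Myh11, among them the loss of any 1 of the 4 NDM mice, and in 3 for Itga8. Without the NDM_RBX arrays 2 of the 100 passed as higher, against 486 of all 11036 genes, and Myl9 did not (0.26, adjusted p = 0.065). All 4 NDM values lay below the 12 others for 1.42% of all genes tested. Of the 52 lower genes, Fstl1, a secreted glycoprotein, was the 1 whose NDM values (90713 to 106694) all lay below the others (113205 to 163986), with -0.50 (SE 0.09, adjusted p = 0.00134). It did not pass after quantile normalization (-0.18, adjusted p = 0.0763) or when its probe sets were averaged (-0.27, adjusted p = 0.0562).

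Over all genes tested 8.96% were higher in NDM and 9.4% lower as deposited. By list, contractile smooth muscle had 18 of 26 genes higher in NDM and 1 lower, with a median of 0.56, against 19 and 0 after quantile normalization. Without the NDM_RBX arrays 11 were higher and the median was 0.27. Without NDM mouse 2 or mouse 4 it was 12. Smtn was 1.2 higher (SE 0.23, adjusted p = 0.0019) and Sost 1.55 (SE 0.24, adjusted p = 0.000456), and both passed in each alternative run. Lower in NDM were 17 of 23 interferon response genes (median -0.60), 16 of 22 endothelial genes (-0.50) and 18 of 31 macrophage and foam cell markers (-0.47), and none of these lists had a gene that was higher. After quantile normalization these counts were 18, 16 and 14. The macrophage count was 6, 7 and 7 without NDM mouse 1, 2 or 4, 25 without mouse 3 and 12 without the NDM_RBX arrays. The endothelial count was 10 without NDM mouse 2, and the interferon count 11 without mouse 4. Other lists also lay to 1 side as deposited. MHC class II had 5 of 6 genes lower and 0 higher, and adventitial fibroblast 9 of 17 lower and 0 higher. Heat shock chaperones had 6 of 15 genes higher and 0 lower. Alternatives for the MHC class II, adventitial fibroblast and heat shock lists are not given here. Over all genes, 867 of 11039 were higher and 935 lower after quantile normalization. Without the NDM_RBX arrays 486 of 11036 were higher and 477 lower. Without NDM mouse 1, 2, 3 or 4, 552, 560, 1010 and 511 were higher and 575, 533, 1049 and 519 lower. All of the list counts share the 4 NDM arrays.

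The genes that lay apart from all 12 other arrays with the largest differences were named by rule. Mylk4, a myosin light chain kinase, had 13106, 12564, 7523 and 10411 in NDM mice, against 1372 to 5222 (median 3576) on the others, a difference of 1.75 (SE 0.18, adjusted p = 3.34e-05). Efhd1, a calcium-binding mitochondrial protein, had 18613, 19259, 10059.5 and 17744 in NDM mice, against 1386 to 8748 on the others (1.5, SE 0.22, adjusted p = 0.000361). Tnfrsf11b, the decoy receptor osteoprotegerin, had 8251, 5494, 5325 and 4445 in NDM mice, against 1146 to 4123 on the others (1.34, SE 0.17, adjusted p = 0.000172). NDM mice were above every other mouse for each, and mouse 3 was the lowest NDM mouse for Mylk4 and Efhd1. Sphkap, an anchor of protein kinase A, was 1.79 higher, and Ecrg4 1.5, Ecm2 1.37 and Abat 1.36, all with an adjusted p under 0.05. Ecm2 and Abat did not pass when their probe sets were averaged (0.72 and 0.42, adjusted p = 0.202 and 0.382). Kap was 1.78 higher (SE 0.41, adjusted p = 0.00641), and 1.0 (adjusted p = 0.00398) without mouse 3.

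On the lower side, Iigp1, an interferon-inducible GTPase, had 5311, 4869, 5287 and 4375 in NDM mice, against 8094 to 12818 on the others (-1.05, SE 0.09, adjusted p = 8.12e-06). Lyve1, the hyaluronan receptor of lymphatics and resident macrophages, had 1971, 2079, 2212 and 1882 in NDM mice, against 2696 to 8793 on the others (-1.11, SE 0.16, adjusted p = 0.000309). Fcna, a ficolin of macrophages, had 931, 1011, 928 and 1098 in NDM mice, against 1569.5 to 4876 on the others (-1.23, SE 0.20, adjusted p = 0.000818). The 4 NDM mice were close together in each and below every other mouse. The macrophage chitinase-like gene Chil3 (-1.68), the coagulation factor gene F10 (-1.54), the endothelin receptor Ednrb (-1.14) and Cyyr1 (-1.11) were also lower. Cyyr1 did not pass when its probe sets were averaged (-0.66, adjusted p = 0.217).

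Among the antibody genes, Ighm was 2.60 higher in NDM (SE 0.68, adjusted p = 0.0133), and did not pass without mouse 1 (1.83, adjusted p = 0.0858) or mouse 2 (1.75, adjusted p = 0.0836). Igkv8-30 was 2.91 higher (SE 0.96, adjusted p = 0.0427) and did not pass in 12 of 25 alternatives. Jchain (1.90, adjusted p = 0.214) and Slpi (1.38, adjusted p = 0.0633) did not pass, although Slpi passed without mouse 3 (1.94, adjusted p = 0.0117) or mouse 4 (1.99, adjusted p = 0.0166). Fabp4 (-0.71, adjusted p = 0.0288) and Lpl (-0.55, adjusted p = 0.0191) were lower in NDM and did not pass after quantile normalization (adjusted p = 0.0977 and 0.0512) or without NDM mouse 1, 2 or 4. Apoe (0.08, adjusted p = 0.919) and Prkcb (-0.34, adjusted p = 0.16) did not pass.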

How the data were processed

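Total RNA of whole aorta from 16 mice, 4 in each of 4 groups, was hybridised to 1 Affymetrix mouse array each. The deposited values are linear intensities, MAS5 signals per the submitters' processing notes. No source used here gives the MAS5 version. As deposited, the 2% trimmed mean of each array is 1500. The number of arrays limits the precision.

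Log2 was taken without an offset. Control probe sets (64), probe sets with several symbols (932) and unnamed ones (9160) were left out, and the probe set with the highest mean over 16 arrays stood for its gene. Of the 34945 probe sets with a single symbol 99.4% matched the RefSeq gene table. Genes were ranked by mean log2 signal in NDM, and 11036 genes above the median probe set were used for spread and tests.

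NDM minus the mean of the other groups was tested with limma 3.58.1 (R 4.3.3), group means over all 16 arrays, a trended prior and Benjamini-Hochberg adjustment over all genes tested. Array measures had exact two-sided permutation tests. The test of spread used limma on absolute deviations. On simulated data the test of means recovered 176 of 200 genes changed by 1 log2 unit, with 7 false calls. Smaller changes were not simulated, and of the 2026 called genes 64 were higher and 54 lower by over that size. The test of spread recovered 110 of 200 changed genes and called 60 unchanged ones, too many. Quantile normalization used all 16 arrays. Tables and figures were made with Python 3.11.15, pandas 2.3.3, scipy 1.17.1 and matplotlib 3.10.9.

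The members and lists were chosen with earlier results of these data known. Genes named by rule were Apoe, Prkcb, the 40 highest, the 12 with the largest SD, the 8 with the smallest SD in the top 500, the leading and most variable members of each list, and the 10 largest differences in each direction among called genes whose NDM values lay apart from the others. Other genes, among them Rgs5, Ccn3, Csrp2, Myh11, Actn1, Igfbp7, Nupr1, Fstl1, Mzb1, Mmp13 and those shown for their start sequences or at the edge of the top 100, were named after their values were seen. Alternatives covered scaling, filter, offset, choice of probe set, trend, the replicate number as a block and each array left out.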

Additional observations from a re-analysis of the deposited data

Results flagged for a closer look

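Of 135 values, those of 128 named genes and of the array measures, 10 (7.41%) passed Dixon's limit for 4 samples. Past this limit 1 NDM mouse lies far from the other 3, which chance gives in about 1 in 20 groups. Some of these genes were named for their spread between these mice or after their values were seen, so the 7.41% tests nothing. Over all 11036 genes 685 passed the limit (6.21%), of which mouse 3 set 343, mouse 4 154, mouse 1 96 and mouse 2 92. High in mouse 3 were the lysozyme gene Lyz2 at 141848, Ctss at 114446, Clu at 106195 and Kap at 13239.7. Low in mouse 3 were Sost at 7696, Il6 at 291, Efhd1 at 10059.5 and Actn1, an actin cross-linker, at 54739. Actn1 had 64585, 62848 and 62933 in mice 1, 2 and 4. High in mouse 4 were the chaperone Hsp90aa1 at 59528 and Csrp2, a LIM protein of smooth muscle, at 96121. Csrp2 had 84957, 85119.8 and 84491 in mice 1 to 3. Causes were not tested.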

How the results depend on the processing

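Of the top 100 genes, 98 to 99 stayed with 1 mouse left out, 99 after quantile normalization, 79 without probe sets of the suffixes s and x, and 51 when a gene's probe sets were averaged. The median SD above the filter (0.18) was 0.30 with no filter, 0.15 with a filter at the 70th percentile and 0.15 to 0.18 with 1 mouse left out, the lowest without mouse 3. That of the top 100 was 0.10 after quantile normalization and 0.089 to 0.20 with 1 mouse left out, again lowest without mouse 3.

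The 2026 calls between NDM and the rest were 1015 with probe sets averaged, 963 without the NDM_RBX arrays and 1030 to 2183 with 1 array left out (1127, 1093 and 1030 without NDM mouse 1, 2 or 4), and 1701 to 2029 under the other settings without a block. In the top 100, 11 higher and 52 lower were 31 and 2 after quantile normalization, 7 and 34 with no filter, 7 and 45 with no intensity trend, 13 and 23 with probe sets averaged, and 2 and 26 without the NDM_RBX arrays. With 1 array left out the ranges were 6 to 12 and 27 to 59. The median of -0.27 was 0.034 after quantile normalization and -0.16 with probe sets averaged. Acta2 was 0.21 after quantile normalization and 0.81 with probe sets averaged, and Apoe ranged over -0.19 to 0.21 with 1 array left out. The 6 calls on spread were 52 with no filter and 4 to 8 otherwise. The causes were not tested.

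The replicate number as a block gave 2045 calls, 979 higher and 1066 lower in NDM, of which 1901 were shared. Same-numbered arrays did not deviate together (median correlation 0.013 over 24 pairs, 2 of them over 0.1, against -0.001 over 72 pairs of different number), so the numbers were not taken as a pairing.

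Of 42 genes whose difference is named, 19 kept their outcome, passing or not, in every alternative. Jchain and Prkcb are among these and passed in none. Over the 1041 alternatives of the 42 genes 943 kept the outcome, 87 lost a call, 7 gained one and 4 changed sign. Of 766 alternatives to the levels of 128 genes, 48 moved by over 1 SD, each in a different gene. Leaving out 1 of the 4 mice cannot move their mean that far, so only the changes of scaling could.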

Other observations

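The top 1000 are 5.5% of the ranked genes. Of 17 measured circadian clock genes 2 were in the top 1000, the nuclear receptor gene Nr1d2 at rank 236 and the transcription factor gene Dbp at rank 498. Of 55 oxidative phosphorylation genes 40 were in the top 1000, with a median rank of 667 and a median SD of 0.10 log2 units. Uqcrb, a subunit of complex III, and Cox6a1, of complex IV, were in the top 100. Of 14 glycolysis genes 5 were in the top 1000, with the smallest median SD of the lists (0.08). None of the 15 cholesterol synthesis genes was there, at a median rank of 8387, and 1 of 21 cell division genes was. The Y-linked translation factor gene Eif2s3y had 5525, 5115, 5561 and 3806 in NDM mice 1 to 4, and Xist, the RNA of the inactive X chromosome, had 395, 325, 566 and 318. Eif2s3y was lowest in mouse 4 and Xist highest in mouse 3. Neutrophil and plasma cell genes did not share their pattern: S100a8 was highest in mouse 3, and Mzb1 in mice 1 and 2.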
